A study of Arabidopsis thaliana with 21 samples.

Results

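Seedlings of H89C4-7, an Arabidopsis thaliana line named for AtNEET with histidine 89 replaced by cysteine, were compared with seedlings of NEET5-4, a line named for AtNEET itself. The pair was chosen because the lines carry similar amounts of AtNEET transcript. An altered protein is thus set against the unaltered protein at a like transcript level. The amount of protein was not part of these data. The pair takes up 6 of the 21 libraries of the series, 3 per line. The remaining 15 libraries come from H89C11-7, H89C23-10, NEET10-10, NEET11-9 and the wild type Col, with 3 libraries each. All were whole seedlings of 7 days from liquid culture in 0.5x MS, a mineral nutrient medium, and the labels name no further treatment. The title of the series describes the H89C product as dominant-negative and names iron-sulfur metabolism and iron homeostasis as its subject. Each side of the comparison is a single transgenic line, so the construct cannot be told apart from the insertion site or other features of the line. The promoter that drives the transgenes, and whether the endogenous gene is intact, were not stated in the labels, nor was whether the 3 libraries of a line were separate cultures, so p-values measure the spread between libraries, which may be technical.

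NEET proteins are small proteins that carry an iron-sulfur cluster on a CDGSH domain, where cysteines and a single histidine hold the cluster. The histidine makes the cluster labile enough to be handed to acceptor proteins, and in the human relative mitoNEET its replacement by cysteine stabilises the cluster. AtNEET is found in chloroplasts and mitochondria and has been linked to iron and reactive oxygen metabolism. The changed residue is shown within the coding sequence because it is what separates the 2 lines by name. In TAIR10.1, AtNEET (AT5G51720) lies on the plus strand of chromosome 5 at 21009347 to 21010345 and encodes 108 residues. The reference sequence below, from RefSeq, covers chr5:21010129-21010203 in exon 2 of 2, with the codon of histidine 89 in capitals.
AtNEET codon 89: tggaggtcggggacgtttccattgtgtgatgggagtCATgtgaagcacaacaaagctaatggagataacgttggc
The altered codon cannot be read from gene counts, and transgene and endogenous transcripts were counted together.

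AtNEET stood at normalized counts of 16707, 16522 and 15072 in the 3 H89C4-7 libraries, against 18723, 18183 and 17667 in the NEET5-4 libraries and 367, 186 and 230.4 in Col. Normalized counts are reads per gene that the authors divided by a size factor for each library. The H89C4-7 libraries were all below the NEET5-4 libraries, by a narrow margin beside the distance of both from Col. The means were 16100 ± 895 in H89C4-7 and 18191 ± 528 in NEET5-4 (SD, n = 3 each). No test is given, since the pair was chosen on this gene. The other lines were not matched, with means of 2380 ± 110.0 in H89C11-7, 1299 ± 74.0 in H89C23-10, 32837 ± 1900 in NEET10-10 and 332 ± 5.78 in NEET11-9.

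**Figure D1:**
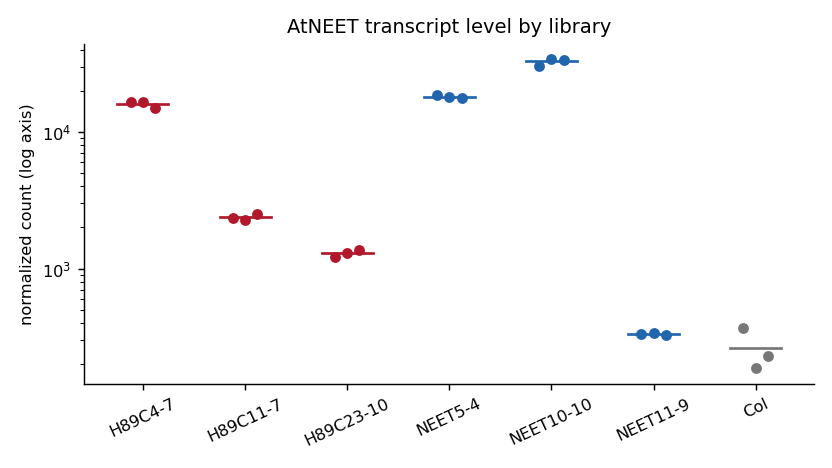
AtNEET normalized counts on a log axis, 1 point per library and a line at each mean. H89C4-7 and NEET5-4 sit side by side near the top, while the other lines range from the level of Col to the highest values in NEET10-10.

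Depth was 17.88 to 21.16 M reads in the H89C4-7 libraries and 19.33 to 21.52 M reads in the NEET5-4 libraries, within 8.24 to 24.68 M reads over the series (M, mega). Col replicate 1 and NEET10-10 replicate 1 were unlike their companion libraries, with a chi-square per degree of freedom of 8.44 to 15.39 and 9.06 to 11.37, against 2.08 to 2.83 between libraries of H89C4-7 or of NEET5-4. Differences are of log2(normalized count + 1), which understates those of low genes, and a gene was called at a limma adjusted p under 0.05. Of the 20699 genes tested, 13941 were called (67.4%), 7151 of them higher in H89C4-7 (34.5%) and 6790 lower (32.8%). With a limit of at least 2-fold, 1712 genes were higher (8.27%) and 2198 lower (10.6%). Without Col replicate 1 and NEET10-10 replicate 1, which enter the shared estimate of the spread, 7609 genes were called higher and 7246 lower. The median absolute difference between the lines was 0.407 on the log2 scale, against a median SD between libraries of 0.0870 in H89C4-7 and 0.0871 in NEET5-4. Large differences lay mostly on one side: 264 genes were at least 8-fold higher in H89C4-7 and 44 were at least 8-fold lower. Because so many genes were called, every count of list members in the pair below is to be read against these percentages. Called higher in H89C4-7 were 20 of 22 sugar starvation genes, 14 of 15 heat shock genes, all 14 clock genes and 11 of 13 plastid iron-sulfur assembly genes. Called lower were 12 of 13 root hair genes, all 11 aquaporin genes, 16 of 17 cell cycle genes and 28 of 43 photosynthesis genes. In whole seedlings, fewer cells of a type and less RNA per cell cannot be told apart.

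Of the 10 largest rises in H89C4-7, 4 were in genes with no read in NEET5-4 and 3 in genes with 1 read over its libraries. To be ranked, a gene had to be called, to reach an average of 50 in one of the lines and to show no overlap between their libraries. ELI3-2 (AT4G37990), an elicitor-activated gene of the cinnamyl alcohol dehydrogenase family, had 881, 1333 and 1104 in H89C4-7 and 0 in every NEET5-4 library. It was at least 376-fold higher when NEET5-4 is set at 3 reads per library, and Col had 0, 1.07 and 0. SUC7 (AT1G66570), a sucrose-proton symporter gene, had 430.2, 459 and 424 in H89C4-7 and 0 in every NEET5-4 and Col library, at least 149-fold higher. UGT73C2, a glucosyltransferase gene, and SAG13, a marker of senescence, were also at 0 in every NEET5-4 library, and at least 41.9-fold and 40.3-fold higher in H89C4-7. AT5G16960, a zinc-binding dehydrogenase gene, and AT2G33160, a polygalacturonase gene, had 1 read each over the NEET5-4 libraries, against 665, 802 and 743 and 377, 334 and 353 in H89C4-7. The ratio of H89C4-7 to NEET5-4 was 2140 (95% counting interval 383 to 84300) for AT5G16960 and 1150 (95% counting interval 207 to 45600) for AT2G33160.

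DIN2 (AT3G60140; chromosome 3, 22216540 to 22220824 in TAIR10.1), a beta-glucosidase gene known for its induction in darkness and under sugar starvation, was the most abundant of the 10 and was well detected in NEET5-4. It had 13911, 15243 and 15141 in H89C4-7, against 73.7, 56.9 and 42.5 in NEET5-4 and 277, 294 and 341 in Col. NEET5-4 lay below Col and H89C4-7 above it, so Col stood between the 2 lines, and the rise was 257-fold (log2 difference 8.01 ± 0.14 SE, limma adjusted p = 3.88e-24). GLYI7, a glyoxalase I family gene, had 1485, 1742 and 1661 in H89C4-7 against 10.1, 9.31 and 5.93 in NEET5-4 (log2 difference 7.46 ± 0.20 SE, limma adjusted p = 4.41e-21). ARCK1, a receptor-like kinase gene, had 343, 430.2 and 421 against 0.921, 1.03 and 4.94 (log2 difference 7.12 ± 0.44 SE, limma adjusted p = 1.94e-13). In both genes Col again lay between the lines, at 42.9, 32.1 and 27.0 for GLYI7 and 22.3, 9.64 and 9.81 for ARCK1. The tenth, ASHR2, differs from these because it was low in NEET5-4 only, as described at the end.

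The largest falls were smaller, and in ANR1, ALMT1 and XTH17 NEET5-4 was near the level of Col. ANR1 (AT2G14210; chromosome 2, 6018558 to 6023863), a MADS-box gene of root responses to nitrate, had 3.63, 2.02 and 4.45 in H89C4-7, against 81.1, 73.5 and 77.1 in NEET5-4 and 77.8, 62.1 and 78.5 in Col, a fall of 18.4-fold (log2 difference -4.21 ± 0.22 SE, limma adjusted p = 8.25e-15). ALMT1, a root malate channel gene, had 32.6, 16.2 and 25.6 in H89C4-7, against 394, 349.7 and 466 in NEET5-4 and 381, 294 and 346 in Col (log2 difference -4.01 ± 0.16 SE, limma adjusted p = 2.13e-17). GSTF14, a glutathione S-transferase gene, had 8.46, 12.1 and 6.67 in H89C4-7, against 196, 172 and 159 in NEET5-4 and 324, 313 and 248 in Col (log2 difference -4.16 ± 0.16 SE, limma adjusted p = 1.42e-17). For HAK5, the high-affinity potassium transporter of roots, both lines lay below Col. It had 7.25, 2.02 and 3.34 in H89C4-7, against 63.6, 65.2 and 82.0 in NEET5-4 and 403, 401 and 378 in Col (log2 difference -3.89 ± 0.22 SE, limma adjusted p = 2.43e-14). The cell wall gene XTH16 was instead raised in NEET5-4, with 238, 302 and 313 in H89C4-7, 3244, 3048 and 3133 in NEET5-4 and 679, 929.8 and 902 in Col (log2 difference -3.47 ± 0.10 SE, limma adjusted p = 2.11e-20). The remaining members of the 10 were XTH17, the peroxidase gene AT5G47000, the kinase gene AT1G33770, AT3G01260 and the desaturase gene ADS4, with falls of 10.9-fold to 15.9-fold. AT1G33770 and AT3G01260 were also raised in NEET5-4, with means of 124 and 236 against 51.2 and 123 in Col, and were below Col in H89C4-7 (7.37 and 19.5). AT5G47000 and ADS4 had means of 57.4 and 169 in NEET5-4 against 51.0 and 132 in Col.

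Iron homeostasis, the subject named by the series, moved mainly upward in H89C4-7. Plants sense low iron through bHLH transcription factors, IMA peptides and the E3 ligase BTS, and take it up through the reductase FRO2 and the transporter IRT1 in roots. Of 18 regulators tested, 12 rose and 3 fell, with a median log2 difference of 0.52 against 0.00 over all genes. PYE, a bHLH regulator of the deficiency response, had 835, 768 and 880.0 in H89C4-7, against 205, 212 and 209 in NEET5-4 and 382, 449.9 and 439 in Col (log2 difference 1.98 ± 0.07 SE, limma adjusted p = 6.7e-19). BTS, which marks bHLH proteins for degradation, had 7243, 7466 and 7150 in H89C4-7, against 2725, 2935 and 2794 in NEET5-4 and 4232, 4519 and 4310 in Col (log2 difference 1.37 ± 0.05 SE, limma adjusted p = 5.73e-19). For both genes NEET5-4 lay below Col and H89C4-7 above it, and no library overlapped. IMA3, a peptide gene that promotes iron uptake, had 793, 745 and 784 in H89C4-7, against 181, 203 and 210.4 in NEET5-4 and 809.9, 680.2 and 633 in Col, so that H89C4-7 was at the level of Col and NEET5-4 was low (log2 difference 1.96 ± 0.09 SE, limma adjusted p = 3.32e-16). IMA1, another of these peptide genes, rose by 3.33-fold, and the transcription factor genes URI and MYB10 fell by 1.38-fold and 2.88-fold. FIT, the root master regulator, was not called, with 231, 247 and 293 in H89C4-7 against 256, 218 and 244 in NEET5-4 (log2 difference 0.10 ± 0.12 SE, limma adjusted p = 0.483).

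Transport and storage genes were less uniform. Of 27 uptake and transport genes, 17 rose and 8 fell (median log2 0.34). FRO7, the ferric reductase of chloroplasts, had 3721, 3672 and 3561 in H89C4-7, against 893, 944 and 927 in NEET5-4 and 2381, 2287 and 2292 in Col (log2 difference 1.99 ± 0.05 SE, limma adjusted p = 1.62e-21). NRAMP3, which releases iron from the vacuole, had 847, 982 and 948 against 214, 188 and 203 in NEET5-4 and 250.3, 221 and 223 in Col (log2 difference 2.19 ± 0.09 SE, limma adjusted p = 8.58e-17). NEET5-4 was slightly below Col for NRAMP3 and well below it for FRO7. The nicotianamine synthase genes, whose product carries iron in the plant, went apart: NAS3 rose by 8.47-fold and NAS1 fell by 2.46-fold. IRT1 and FRO2 were called in opposite directions at small size, with 998, 870.4 and 969 in H89C4-7 against 988, 1228 and 1358 in NEET5-4 for IRT1 (log2 -0.32, limma adjusted p = 0.0458) and log2 0.30 for FRO2 (adjusted p = 0.0393). The libraries of the 2 lines overlapped for IRT1, and both calls were marginal. IRT1 was not called without H89C4-7 replicate 1, 2 or 3 or without NEET5-4 replicate 2 or 3 (adjusted p = 0.0527 to 0.216), nor by DESeq2 (adjusted p = 0.0702), and FRO2 was not called without H89C4-7 replicate 2 or 3 or NEET5-4 replicate 1 (adjusted p = 0.0664 to 0.248). FRO2 was also not called after rescaling (limma adjusted p = 0.0826). With no filter on low counts neither gene was called (limma adjusted p = 0.0644 for FRO2 and 0.0778 for IRT1). The proton pump gene AHA2 fell by 1.74-fold.

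FER1, the main iron storage ferritin of leaves and a gene that rises when iron is ample or under oxidative load, had 7848, 8215 and 8251 in H89C4-7, against 1894, 1796 and 1847 in NEET5-4 and 2283, 2083 and 2050 in Col. H89C4-7 stood far above both other groups (log2 difference 2.13 ± 0.05 SE, limma adjusted p = 4.68e-22). FER4 rose by 1.44-fold. FER3 was not called, at 594 ± 54.8 in H89C4-7 and 545 ± 30.9 in NEET5-4 (SD, n = 3 each; limma adjusted p = 0.179, and 0.0414 without H89C4-7 replicate 3). Of 7 storage genes, 4 rose and none was called lower by limma.

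Iron-sulfur cluster assembly genes were raised broadly and by small amounts. In plastids, where the SUF machinery builds clusters for photosynthesis, 11 of 13 genes rose and none was called lower (median log2 0.43). SUFB, a scaffold subunit, had 5333, 5541 and 5368 in H89C4-7, against 2586, 2488 and 2567 in NEET5-4 and 2642, 2920 and 2716 in Col (log2 difference 1.09 ± 0.04 SE, limma adjusted p = 1.48e-17). SUFE2, an activator of the sulfur donor, had 366, 320.1 and 345 against 105, 118 and 119.5 in NEET5-4 and 199, 219.6 and 233 in Col (log2 difference 1.58 ± 0.09 SE, limma adjusted p = 9.26e-14). SUFB was above Col in H89C4-7 and slightly below it in NEET5-4, whereas SUFE2 was above Col in H89C4-7 and below it in NEET5-4. In the mitochondrial and cytosolic pathways 13 of 16 rose and 1 fell (median log2 0.34). DRE2, of the cytosolic electron transfer step, rose by 1.95-fold and ISU1, the mitochondrial scaffold, by 1.59-fold. INDH, a mitochondrial assembly factor for complex I, was the gene that fell, by 1.60-fold. The other 11 plastid genes differed by less than 2-fold.

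Genes for proteins that carry iron or iron-sulfur centres followed the same pattern, with 21 of 29 higher and 2 lower (median log2 0.41). The 4 members with a rise of at least 2-fold included AAO3, the abscisic aldehyde oxidase, at 1610, 1718 and 1655 in H89C4-7, against 420.1, 439 and 435 in NEET5-4 and 609.7, 499 and 525 in Col (log2 difference 1.94 ± 0.07 SE, limma adjusted p = 2.66e-18). XDH1, xanthine dehydrogenase of purine breakdown, had 4241, 4749 and 4498 against 1795, 1834 and 1923 in NEET5-4 and 1735, 1845 and 1873 in Col (log2 difference 1.28 ± 0.05 SE, limma adjusted p = 1e-17). Both stood above Col in H89C4-7, while NEET5-4 lay below Col for AAO3 and overlapped it for XDH1. The others were FD1, a leaf ferredoxin, and TIC55, a Rieske protein of the plastid import machinery, with rises of 2.28-fold and 2.31-fold. SDH2-1, the iron-sulfur subunit of succinate dehydrogenase, rose by 1.94-fold. Of the members called lower, HCAR, a chlorophyll cycle reductase, fell by 1.16-fold. The count of members called lower was 4 after rescaling and 1 without H89C4-7 replicate 2 or 3 or without NEET5-4 replicate 1.

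**Figure D2:**
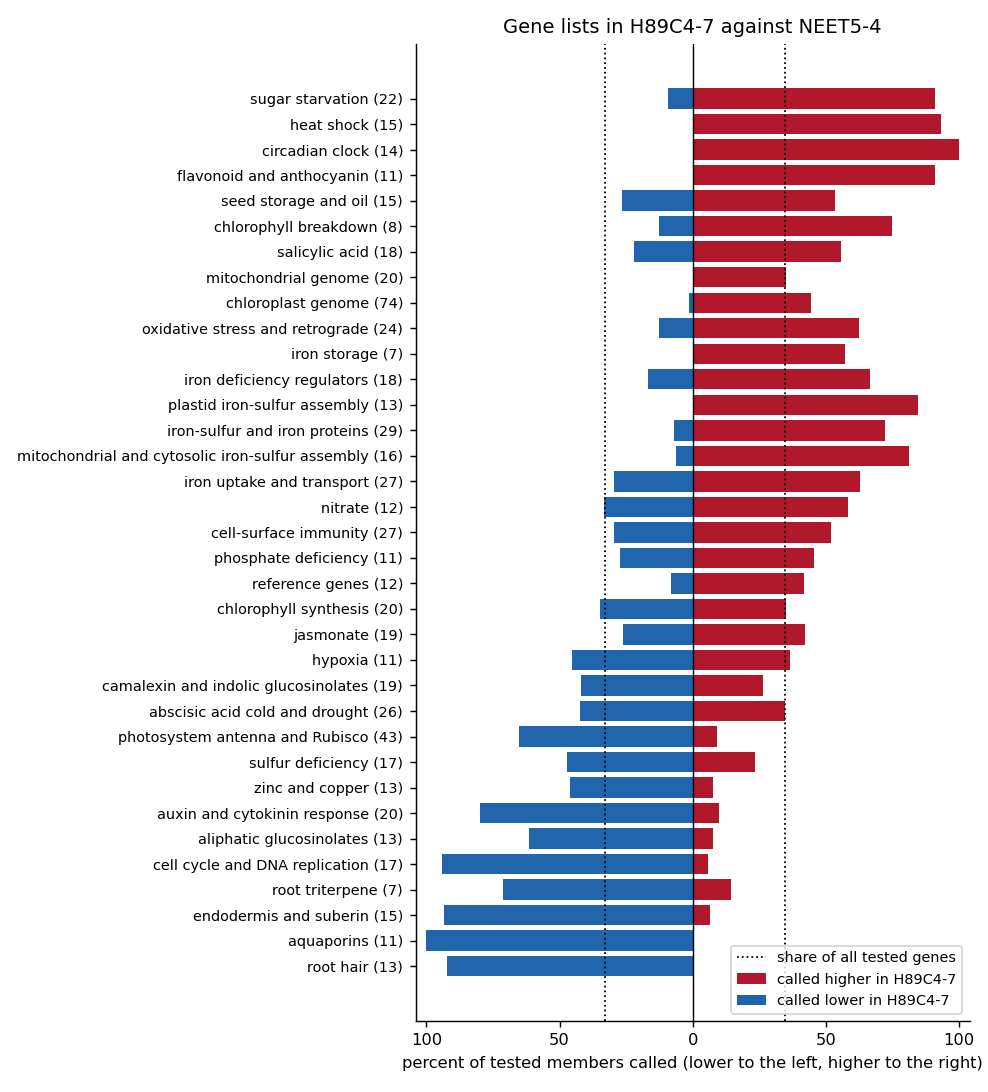
Percent of tested members called by limma in H89C4-7 against NEET5-4 for each gene list, with the number tested in brackets. Red bars to the right are members called higher, blue bars to the left members called lower, and dotted lines mark the shares of all tested genes, 34.5% higher and 32.8% lower.

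Nuclear photosynthesis genes were lower in H89C4-7, mostly by less than 2-fold. Of 43 genes for antenna proteins, photosystem subunits and the small subunit of Rubisco, 28 fell and 4 rose (median log2 -0.23). LHCB1.4, an antenna gene of photosystem II, had 41340, 35784 and 34566 in H89C4-7, against 82874, 80776 and 75619 in NEET5-4 and 105215, 90482 and 97289 in Col (log2 difference -1.10 ± 0.08 SE, limma adjusted p = 2.62e-12). LHCB3 had 31912, 27929 and 29677 against 49786, 50482 and 46284 in NEET5-4 and 74331, 56276 and 62763 in Col (log2 difference -0.71 ± 0.07 SE, limma adjusted p = 6.22e-09). NEET5-4 lay below Col in both, and H89C4-7 lower still. The members of the LHCB1, LHCB2 and RBCS families have near-identical copies, so reads may have been split between them and their single values are uncertain. RBCS1A rose by 1.26-fold and the minor antenna gene LHCB4.3 by 2.23-fold. Of 5 marker genes of green tissue 4 fell and 1 rose, and they summed to 506088 to 562739 in H89C4-7, 559763 to 609268 in NEET5-4 and 677318 to 702243 in Col. None of these markers was at 0 in all 6 libraries of the pair, and the part of green tissue in the results was not tested.

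Chlorophyll synthesis genes split evenly, 7 of 20 higher and 7 lower, but the protochlorophyllide oxidoreductases, which make chlorophyllide, all fell. PORB had 4416, 4064 and 4322 in H89C4-7, against 14042, 13617 and 13487 in NEET5-4 and 14817, 14168 and 14467 in Col (log2 difference -1.69 ± 0.04 SE, limma adjusted p = 3.23e-21). PORA, the form of dark-grown seedlings, had 3.63, 4.04 and 13.3 against 65.4, 75.5 and 76.1 in NEET5-4 and 103, 88.9 and 108 in Col (log2 difference -3.40 ± 0.27 SE, limma adjusted p = 3.38e-11), and PORC fell by 1.46-fold. HEMA1, which controls entry into the pathway, rose by 1.48-fold. Chlorophyll breakdown genes went up, 6 of 8 higher and 1 lower (median log2 0.76). NYC1, which starts the breakdown of chlorophyll b, had 8656, 9370 and 8946 in H89C4-7, against 2542, 2509 and 2591 in NEET5-4 and 2457, 2610 and 2810 in Col (log2 difference 1.82 ± 0.05 SE, limma adjusted p = 2.7e-21). NYE2, a magnesium dechelatase gene, rose by 4.59-fold and PPH, the pheophytinase, by 1.86-fold. NEET5-4 overlapped Col for NYC1 and lay just below it for PORB, and H89C4-7 stood apart from both groups.

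Sugar starvation genes had the largest median of the lists, log2 1.45, with 20 of 22 members higher and 2 lower. These genes are raised when energy is short, many through the kinase SnRK1, and several serve the breakdown of branched-chain amino acids. After DIN2, described above, BCAT2, a branched-chain aminotransferase, had 6246, 7086 and 6773 in H89C4-7, against 440.3, 409.8 and 417 in NEET5-4 and 367, 359 and 353 in Col (log2 difference 3.98 ± 0.08 SE, limma adjusted p = 4.99e-23). DIN9, a mannose-phosphate isomerase gene induced in the dark, had 1060, 1279 and 1108 against 101, 93.1 and 109 in NEET5-4 and 172, 150.0 and 191 in Col (log2 difference 3.49 ± 0.10 SE, limma adjusted p = 1.98e-20). IVD, isovaleryl-CoA dehydrogenase, had 5700, 6133 and 5699 against 1654, 1613 and 1656 in NEET5-4 and 1476, 1561 and 1520 in Col (log2 difference 1.83 ± 0.04 SE, limma adjusted p = 1.27e-21). In BCAT2 and IVD, NEET5-4 was slightly above Col. ASN1 and DIN10, asparagine synthetase and a raffinose synthase family gene, were the members that fell. ASN1 had 12536, 12858 and 12459 in H89C4-7 against 14806, 14647 and 14260 in NEET5-4, both far above 5599, 5303 and 4866 in Col (log2 -0.21, limma adjusted p = 0.00177). DIN10 had 27774, 27631 and 26439 in H89C4-7 against 30618, 31010 and 31327 in NEET5-4, both also above 12169, 11731 and 11483 in Col.

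All 14 circadian clock genes were called higher in H89C4-7, 9 of them by at least 2-fold (median log2 1.05). PRR9, a pseudo-response regulator of the morning, had 726, 782 and 773 in H89C4-7, against 44.2, 34.1 and 26.7 in NEET5-4 and 239.6, 185 and 211 in Col, a rise of 21.6-fold (log2 difference 4.43 ± 0.15 SE, limma adjusted p = 5.22e-19). LNK1, a morning co-activator, had 1918, 2067 and 1941 in H89C4-7, against 537, 565 and 589 in NEET5-4 and 1828, 1943 and 1917 in Col (log2 difference 1.81 ± 0.05 SE, limma adjusted p = 5.67e-20). For LNK1 the H89C4-7 libraries were level with Col and NEET5-4 was low, while PRR9 was below Col in NEET5-4 and above it in H89C4-7. The dawn genes CCA1 and LHY rose by 2.62-fold and 2.08-fold, and the evening genes GI and TOC1, whose levels peak at the opposite time of day, by 2.05-fold and 1.5-fold. The hour at which each line was frozen was not stated in the labels, so line and harvest time cannot be told apart for these genes. The promoter of PRR9 is shown because it gave the largest difference of the list and carries a motif bound by clock and light factors. The 250 bases before its annotated start in TAIR10.1, chr2:19232357-19232606 on the plus strand, hold CACGTG, the G-box, 2 times, in capitals.
PRR9 promoter: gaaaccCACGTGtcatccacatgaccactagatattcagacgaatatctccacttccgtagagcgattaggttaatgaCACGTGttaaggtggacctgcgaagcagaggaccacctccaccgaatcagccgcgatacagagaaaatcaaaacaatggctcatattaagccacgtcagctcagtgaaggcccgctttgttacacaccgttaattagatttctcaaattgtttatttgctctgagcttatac
CACGTG, which reads the same on both strands, was found in 5 of 14 clock promoters (35.7%) and in 1516 of 20214 tested protein-coding nuclear genes (7.5%), and AAAATATCT, the evening element, searched on both strands, in 3 of 14 (21.4%) against 2.47%. No match in PRR9 overlapped one of the other motifs searched.

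Heat shock genes rose in 14 of 15 tested and none was called lower (median log2 1.17). HSFA2, a transcription factor that prolongs the heat response, had 155, 164 and 180.2 in H89C4-7, against 5.53, 0 and 5.93 in NEET5-4 and 21.5, 12.9 and 17.2 in Col (log2 difference 5.55 ± 0.45 SE, limma adjusted p = 5.48e-11). HSP70-4, a cytosolic chaperone, had 7216, 7010 and 7249 in H89C4-7, against 658, 656 and 633 in NEET5-4 and 1888, 2406 and 2331 in Col (log2 difference 3.46 ± 0.06 SE, limma adjusted p = 3.88e-24). HSP90.1, another heat-induced chaperone, had 3858, 3824 and 3929 against 377, 354 and 361 in NEET5-4 and 753, 776 and 861 in Col (log2 difference 3.41 ± 0.06 SE, limma adjusted p = 6.29e-24). In all 3 genes NEET5-4 was the lowest group, Col lay between, and no H89C4-7 library came near the others. FES1A and HSP101, which protect and disaggregate proteins, rose by 7.73-fold and 5.48-fold. A pair of small heat shock genes were low: HSP17.4 had 23.0, 9.09 and 8.90 in H89C4-7 and 0 in every NEET5-4 library, at least 4.64-fold higher, and HSP18.2 was not called (log2 0.39, limma adjusted p = 0.202). The promoter of HSFA2 is shown because it had the largest fitted difference of the list and holds 2 matches to GAANNTTC, the core of the heat shock element, in capitals. It covers chr2:11135374-11135623 of TAIR10.1 on the plus strand.
HSFA2 promoter: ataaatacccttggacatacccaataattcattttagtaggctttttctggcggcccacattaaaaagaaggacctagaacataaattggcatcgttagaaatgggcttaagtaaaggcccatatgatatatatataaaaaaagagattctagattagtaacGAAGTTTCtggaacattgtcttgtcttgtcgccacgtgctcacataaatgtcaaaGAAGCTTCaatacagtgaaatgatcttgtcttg
GAANNTTC, searched on both strands, was in 3 of 15 heat shock promoters (20%) and in 1890 of the 20214 (9.35%). It was also in 3 of 14 clock promoters (21.4%) and 1 of 22 sugar starvation promoters (4.55%). Neither match in HSFA2 overlapped another searched motif.

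Oxidative stress and organelle signalling genes rose in 15 of 24 and fell in 3 (median log2 0.59). ZAT12, a zinc finger gene induced by hydrogen peroxide, had 748, 849 and 853 in H89C4-7, against 64.5, 49.7 and 60.3 in NEET5-4 and 206, 180.0 and 196 in Col (log2 difference 3.79 ± 0.10 SE, limma adjusted p = 9.28e-21). AOX1A, the alternative oxidase that marks mitochondrial stress, had 2113, 2120 and 1996 against 619, 632 and 608 in NEET5-4 and 1144, 899.8 and 919 in Col (log2 difference 1.74 ± 0.07 SE, limma adjusted p = 6.35e-18). Both were below Col in NEET5-4 and above it in H89C4-7. CAT2, the leaf peroxisomal catalase, had 105729, 103829 and 105002 in H89C4-7, against 37734, 41372 and 37606 in NEET5-4 and 39328, 50005 and 49770 in Col (log2 difference 1.43 ± 0.09 SE, limma adjusted p = 1.03e-13), while CAT3 fell by 1.8-fold. GSTU24, a detoxifying glutathione transferase, rose by 8.26-fold. After rescaling, 5 members of this list were called lower. Flavonoid genes, which make sunscreen and antioxidant pigments, rose in 10 of 11 tested with none called lower (median log2 0.92). The regulator MYB12 rose by 4.39-fold and CHS, the entry enzyme, by 1.89-fold.

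**Figure D3:**
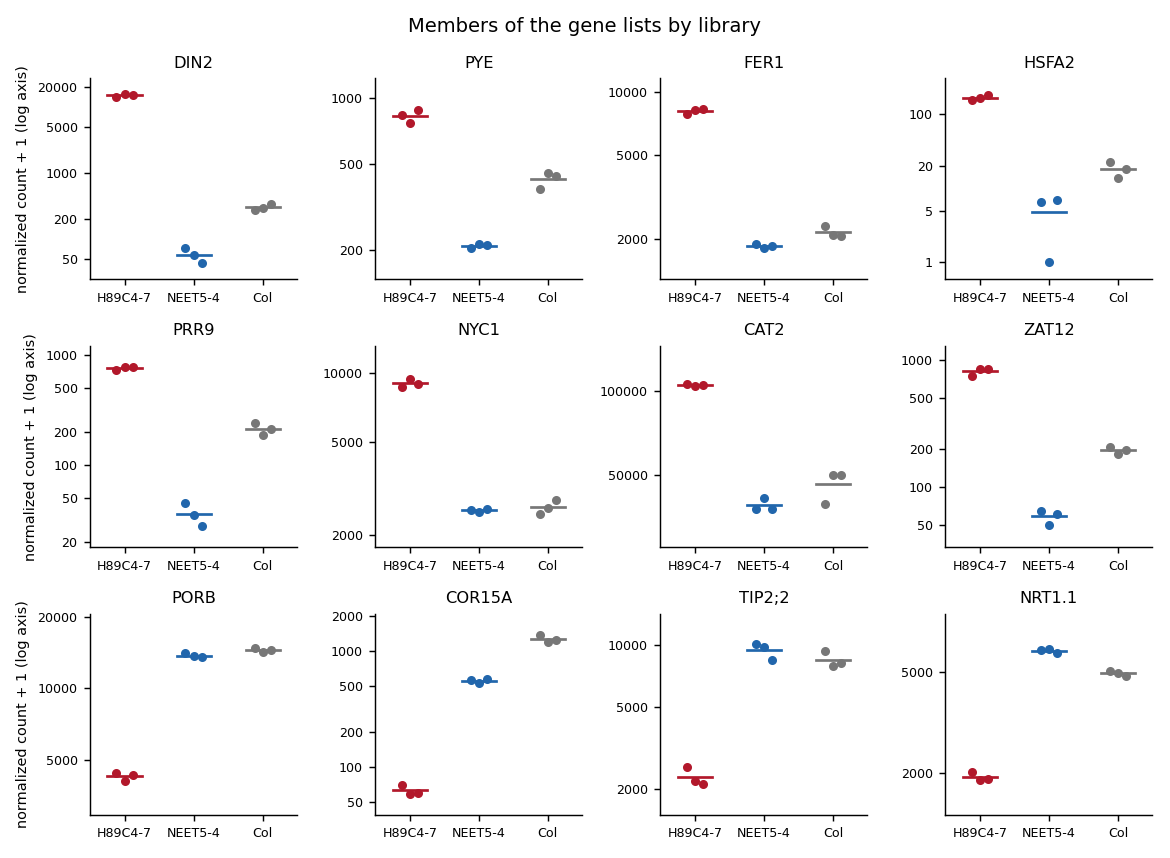
Normalized count + 1 on a log axis for 12 list members, 1 point per library and a line at each mean, with H89C4-7, NEET5-4 and Col from left to right in each panel. In all 12 panels the 3 H89C4-7 libraries are clear of the 3 NEET5-4 libraries, above them for DIN2, PYE, FER1, HSFA2, PRR9, NYC1, CAT2 and ZAT12 and below them for PORB, COR15A, TIP2;2 and NRT1.1.

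Defence genes moved in both directions. Among 18 genes of salicylic acid, 10 rose (55.6%) and 4 fell (22.2%). Of 27 cell-surface immunity genes 14 rose (51.9%) and 8 fell (29.6%), against 34.5% and 32.8% of all tested genes. CBP60G, a regulator of salicylic acid synthesis, had 539, 546 and 483 in H89C4-7, against 123, 132 and 118 in NEET5-4 and 1020, 950.1 and 1015 in Col, so that both lines were below Col and NEET5-4 the lower (log2 difference 2.06 ± 0.06 SE, limma adjusted p = 1.29e-19). WRKY46, a transcription factor gene induced by elicitors, had 83.4, 101 and 121 against 6.45, 8.28 and 6.92 in NEET5-4 and 84.0, 86.8 and 80.9 in Col (log2 difference 3.64 ± 0.15 SE, limma adjusted p = 9.96e-17), and here H89C4-7 was near Col. The receptor gene FLS2 for flagellin and the wall-associated kinase WAK2 fell by 2.46-fold and 3.93-fold. Among 19 camalexin and indolic glucosinolate genes, 5 rose and 8 fell. CYP71A12, of the indolic phytoalexin pathway, had 338, 223 and 238 in H89C4-7, against 5.53, 8.28 and 5.93 in NEET5-4 and 1649, 1240 and 1667 in Col (log2 difference 5.13 ± 0.13 SE, limma adjusted p = 3.23e-21). FOX1, an oxidase of the same branch, had 145, 146 and 172 against 2.76, 2.07 and 0 in NEET5-4 and 426, 285 and 373 in Col (log2 difference 6.10 ± 0.27 SE, limma adjusted p = 2.91e-16). Both lines were below Col for these genes, NEET5-4 close to absent.

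Aliphatic glucosinolate genes, which make methionine-derived defence compounds, were lower, with 8 of 13 called lower and 1 higher, 2 without H89C4-7 replicate 3 (median log2 -0.65). The chain elongation gene MAM3 had 21.8, 16.2 and 20.02 in H89C4-7, against 167, 169.7 and 158 in NEET5-4 and 212, 266 and 218 in Col (log2 difference -3.04 ± 0.12 SE, limma adjusted p = 1.21e-17). BCAT4, at the entry of the chain elongation cycle, fell by 2.18-fold. Of 19 jasmonate genes 8 were higher (42.1%) and 5 lower (26.3%), against 34.5% and 32.8% of all tested genes. The wound protein gene VSP2 fell by 3.12-fold and CYP94B3, which inactivates the hormone, rose by 6.67-fold. Of 17 sulfur genes 4 rose and 8 fell. SULTR4;2, a vacuolar sulfate exporter raised when sulfur is short, fell by 3.31-fold, and the reductases APR2 and APR3 rose by 1.73-fold and 1.59-fold.

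Of 26 abscisic acid, cold and drought genes 9 were higher (34.6%) and 11 lower (42.3%), against 34.5% and 32.8% of all tested genes. COR15A, a plastid protein of cold acclimation, had 68.9, 57.6 and 57.8 in H89C4-7, against 558, 529 and 565 in NEET5-4 and 1361, 1189 and 1233 in Col (log2 difference -3.15 ± 0.08 SE, limma adjusted p = 1.15e-21), and its neighbour COR15B fell by 7.96-fold. HAB1, a phosphatase that restrains abscisic acid signalling, had 4302, 4534 and 4419 against 1294, 1285 and 1311 in NEET5-4 and 1793, 1840 and 1915 in Col (log2 difference 1.77 ± 0.05 SE, limma adjusted p = 7.47e-20). COR15A was below Col in both lines, and HAB1 was above Col in H89C4-7 and below it in NEET5-4. Among 12 nitrate genes 7 rose and 4 fell. The transporter and sensor gene NRT1.1 had 2007, 1876 and 1877 in H89C4-7, against 6107, 6157 and 5967 in NEET5-4 and 5043, 4978 and 4835 in Col (log2 difference -1.66 ± 0.06 SE, limma adjusted p = 4.06e-18). NRT1.8, which removes nitrate from the xylem, rose by 7.13-fold, and the nitrate reductase gene NIA1 by 2.04-fold. Of 11 phosphate deficiency genes 5 rose and 3 fell, with SPX1, a phosphate sensor, up by 6.44-fold. Of 13 zinc and copper genes 1 rose, the copper transporter COPT1, and 6 fell; 2 rose without H89C4-7 replicate 2 or NEET5-4 replicate 1 or 2. Of 11 hypoxia genes 4 rose, ADH1 by 3.90-fold, and 5 fell, SUS4 by 3.26-fold.

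Genes of the root were mostly lower. Of 13 root hair genes 12 fell and none was called higher (median log2 -1.34), and RSL4 was not called. LRX2, a cell wall protein of growing hairs, had 77.3, 75.7 and 46.7 in H89C4-7, against 263, 266 and 281 in NEET5-4 and 146, 193 and 179 in Col (log2 difference -2.04 ± 0.22 SE, limma adjusted p = 1.26e-08). The 13 genes summed to 1380 to 1728 in H89C4-7, 3840 to 4274 in NEET5-4 and 3106 to 3911 in Col, with no gene at 0 in all 6 libraries of the pair. Of 15 endodermis and suberin genes 14 fell and 1 rose, the regulator SCR (median log2 -0.85). FAR1, which makes alcohols of suberin, had 172, 234 and 225 against 555, 562 and 547 in NEET5-4 and 625, 732 and 760.0 in Col (log2 difference -1.41 ± 0.09 SE, limma adjusted p = 1.68e-13). The endodermis list summed to 4452 to 5001 in H89C4-7, 6973 to 7371 in NEET5-4 and 6517 to 6970 in Col. The part of root tissue in ANR1, ALMT1, HAK5, NRT1.1 and other root genes was not tested. All 11 aquaporin genes, which carry water across membranes of roots above all, fell (median log2 -1.16). TIP2;2 had 2548, 2173 and 2099 in H89C4-7, against 10091, 9824 and 8441 in NEET5-4 and 9422, 7880 and 8171 in Col (log2 difference -2.06 ± 0.13 SE, limma adjusted p = 2.65e-13). The root triterpene genes fell in 5 of 7 and rose in 1.

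Growth genes were lower too. Of 17 cell cycle and DNA replication genes 16 fell and 1 rose, TSO2 of nucleotide reduction (median log2 -0.77). CYCB1;2, a mitotic cyclin, had 164, 179 and 169 in H89C4-7, against 428, 439.8 and 385 in NEET5-4 and 341, 386 and 399.6 in Col (log2 difference -1.28 ± 0.08 SE, limma adjusted p = 6.9e-13). All 5 markers of dividing cells fell, and they summed to 685 to 782 in H89C4-7, 1566 to 1720 in NEET5-4 and 1493 to 1697 in Col. Of 20 auxin and cytokinin response genes 16 fell and 2 rose (median log2 -0.65). IAA19, an early auxin gene, had 29.0, 24.2 and 25.6 in H89C4-7, against 149, 136 and 141 in NEET5-4 and 140.4, 118 and 135 in Col (log2 difference -2.39 ± 0.13 SE, limma adjusted p = 1.47e-14), whereas GH3.3, which conjugates auxin, rose by 2.54-fold.

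Seed storage genes were present at low level in H89C4-7. SESA3, an albumin, had 78.6, 45.4 and 107 in H89C4-7 and 0 in every NEET5-4 library, at least 26.1-fold higher, and SESA1 was at least 17.7-fold higher. Of 9 seed markers tested 6 rose and 1 fell, and the 11 in all summed to 373 to 871 in H89C4-7, 181 to 201 in NEET5-4 and 105 to 287 in Col. The albumin genes have close copies, so their single values are uncertain, and the part of seed material in other results was not tested. Over the whole list of 15 seed storage and oil genes 8 rose and 4 fell. OLEO2, an oil body protein, fell by 4.07-fold, and ICL, isocitrate lyase of fat mobilisation, had 7661, 7684 and 7731 in H89C4-7, against 1715, 1608 and 1889 in NEET5-4 and 1112, 1201 and 1238 in Col (log2 difference 2.15 ± 0.11 SE, limma adjusted p = 2.38e-15). Transcripts of the chloroplast genome were called higher in 33 of 74 and lower in 1 (2 without NEET5-4 replicate 1, 0 without replicate 2 or 3), and those of the mitochondrial genome higher in 7 of 20. The mitochondrial count was 11 with the 6 libraries alone, and 4 and 3 without NEET5-4 replicates 2 and 3. Of 12 reference genes 5 were called higher and 1 lower, the last not called without H89C4-7 replicate 2 or 3 or NEET5-4 replicate 1 or 2 (median log2 0.10), ACT2 by 1.24-fold.

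The other 4 transgenic lines gave the same contrast of constructs in libraries that the pair does not use, with AtNEET unmatched. The mean of H89C11-7 and H89C23-10 minus the mean of NEET10-10 and NEET11-9 was called higher for 4599 genes (22.2%) and lower for 4518 (21.8%), or for 4987 and 4927 without Col replicate 1 and NEET10-10 replicate 1. Genes called in the same direction in both contrasts numbered 4852, which is 34.8% of the calls in the pair and 53.2% of those in the other lines, and 1923 were called in opposite directions. Without H89C11-7 the other lines gave 2774 higher and 2621 lower, and 2835 genes in the same direction as the pair. Across all tested genes the log2 differences of the contrasts had a Pearson correlation of 0.484 (Spearman 0.352), a description across genes, which are not independent replicates. The 2 contrasts themselves differed for 12297 genes (59.4%). Of the genes at least 2-fold higher in H89C4-7, 49.3% were called higher in the other H89C lines too, and of those at least 2-fold lower, 46.7% were called lower.

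Genes called higher in both contrasts were ranked by the smaller of their 2 log2 differences, which puts CRC, CYP82C2, AT1G26390, AIG1 and AT1G58320 first; ELI3-2, DIN2 and others with larger rises in the pair were also called higher in both. CRC, a cruciferin of seeds, had 193, 108 and 263 in H89C4-7 and 0.921, 3.10 and 2.96 in NEET5-4, and in the other lines the mean was 117 in H89C11-7, 43.4 in H89C23-10, 0.914 in NEET10-10 and 0 in NEET11-9. Its Col libraries varied widely, with 5.36, 64.3 and 2.45, so that Col replicate 2 was above the mean of H89C23-10. CYP82C2, of the indolic phytoalexin pathway, had 103, 68.7 and 52.3 in H89C4-7 and 0 in every NEET5-4 library, at least 25.3-fold higher. Its Col libraries had 175, 148 and 139.7, above both lines of the pair, and its means were 569 in H89C11-7, 111 in H89C23-10, 55.8 in NEET10-10 and 0.272 in NEET11-9. AT1G26390, a berberine bridge enzyme-like gene, had 347, 348 and 349 in H89C4-7, against 10.1, 3.10 and 0.988 in NEET5-4 and 816, 560.2 and 623 in Col. AT1G58320, a PLAC8 family gene, had 201, 214 and 202 in H89C4-7, against 6.45, 4.14 and 2.96 in NEET5-4 and 231, 167 and 167 in Col. For both genes H89C4-7 was at or below the level of Col. The means of AT1G26390 were 2398 in H89C11-7, 1034 in H89C23-10, 354 in NEET10-10 and 15.7 in NEET11-9. Those of AT1G58320 were 589, 251, 161 and 9.83 in the same order of lines. CYP82C2, AT1G26390 and AT1G58320 were thus far lower in NEET5-4 and NEET11-9 than in NEET10-10, and above Col in H89C11-7. AIG1, a gene induced by avirulent bacteria, had 90.6, 110.1 and 141 in H89C4-7, 1.84, 3.10 and 1.98 in NEET5-4 and 5.36, 4.28 and 9.81 in Col. AIG1 was thus above every Col library in H89C4-7. Among the shared falls, ANR1 had means of 11.6 and 6.58 in H89C11-7 and H89C23-10, against 106 and 75.7 in NEET10-10 and NEET11-9 (log2 -3.20 ± 0.16 SE, limma adjusted p = 2.49e-14). The tonoplast aquaporin gene TIP2;3, with a fall of 5.06-fold in the pair, had a difference of log2 -1.88 ± 0.12 SE, limma adjusted p = 3.38e-12 in the other lines. BGLU19, a beta-glucosidase, AT4G37850, a bHLH gene, and FTM1, a desaturase gene, completed the 5, with log2 differences of -1.95, -2.02 and -1.88 in the pair and -2.07, -1.97 and -1.91 in the other lines. AT4G37850 had means of 15.2 in H89C4-7, 64.7 in NEET5-4 and 13.1 in Col, so H89C4-7 was near Col and NEET5-4 was raised. BGLU19 had 173, 677 and 286 in the same order, with Col between the lines, and FTM1 had 28.0, 106 and 133. In NEET10-10 and NEET11-9 the means were also above Col for AT4G37850 (65.0 and 41.1) and BGLU19 (495 and 697).

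Several lists that moved mostly one way in the pair gave other counts in these lines. The counts are to be read against the shares of all tested genes there, 22.2% called higher and 21.8% lower. Root hair genes fell in 13 of 13 with none called higher, endodermis genes in 12 of 15 and aquaporins in 9 of 11, and heat shock genes rose in 8 of 15 with 1 lower. Clock genes, all higher in H89C4-7 than in NEET5-4, were higher in 1 and lower in 7 of 14. Sugar starvation genes were higher in 6 and lower in 10 of 22, cell cycle genes higher in 6 and lower in 2 of 17, and aliphatic glucosinolate genes higher in 10 and lower in 0 of 13. Iron-sulfur and iron protein genes were higher in 18 and lower in 3 of 29, uptake and transport genes in 16 and 4 of 27. Iron regulators were higher in 9 and lower in 3 of 18, and iron storage genes in 3 and 3 of 7. Plastid iron-sulfur assembly genes were higher in 8 and lower in 1 of 13. Mitochondrial and cytosolic assembly genes were higher in 6 and lower in 0 of 16. No test of a difference between lists was made. DIN2 was higher in both, with log2 2.73 ± 0.10 SE, limma adjusted p = 7.3e-17 in the other lines, where its means were 1602 in H89C11-7, 628 in H89C23-10, 251 in NEET10-10 and 89.8 in NEET11-9. FER1 went the other way there (log2 -0.36 ± 0.04 SE, limma adjusted p = 6.99e-09), and PRR9 was not called (log2 0.11 ± 0.10 SE, limma adjusted p = 0.408).

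**Figure D4:**
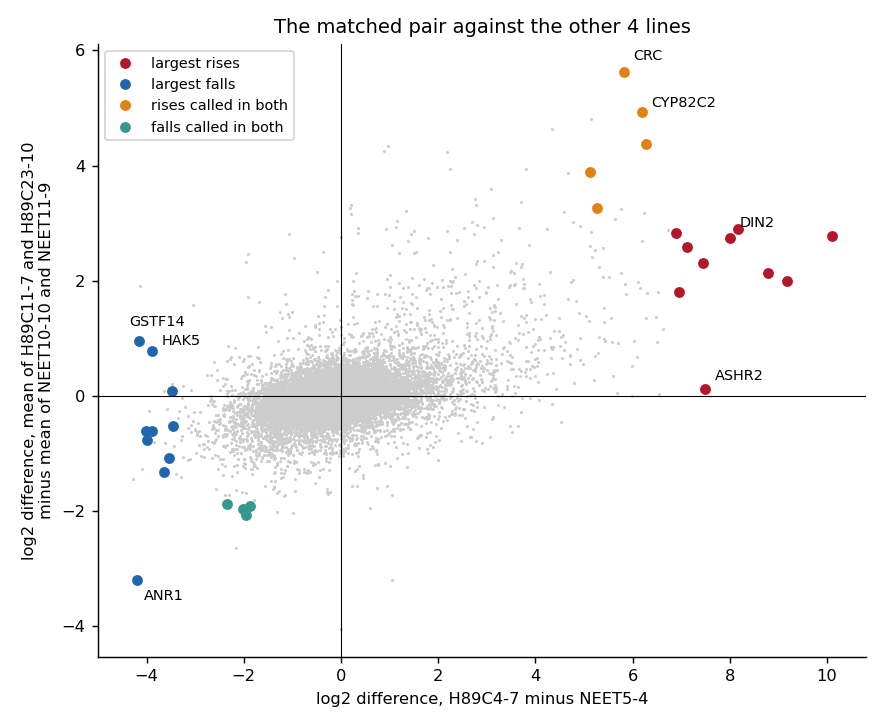
Log2 difference of H89C4-7 minus NEET5-4 on the horizontal axis and of the other H89C lines minus the other NEET lines on the vertical axis, 1 grey point per tested gene and coloured points for the ranked genes. CRC, CYP82C2 and ANR1 are far from 0 on both axes, ASHR2 is near 0 on the vertical axis, and GSTF14 and HAK5 lie on opposite sides of 0 in the 2 contrasts.

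ASHR2, among the largest rises, lies in a run of neighbouring genes on chromosome 2 that were low in NEET5-4 alone, a pattern noticed after the values were seen. NDL3 (AT2G19620; chromosome 2, 8485991 to 8488963), an N-MYC downregulated-like gene, had 87.0, 107 and 103 in H89C4-7, against 0, 0 and 2.96 in NEET5-4 and 134 to 167 in the other 15 libraries. ASHR2 (AT2G19640; chromosome 2, 8491192 to 8492920), a SET domain gene, had 237, 221 and 208 in H89C4-7, against 0.921, 0 and 0 in NEET5-4 and 123 to 181 in the other 15. AT2G19650 (chromosome 2, 8493469 to 8495892), a C1 domain gene, had 766, 789 and 681 in H89C4-7, against 13.8, 21.7 and 23.7 in NEET5-4 and 201 to 498 in the other 15. All 3 NEET5-4 libraries were thus far below the remaining 18 at each of these genes. AT2G19610, which lies between KEA4 and NDL3 and overlaps the annotated edge of NDL3, had few reads in any library, with 3.63, 2.02 and 3.34 in H89C4-7, against 0.921, 0 and 0 in NEET5-4 and 2.04 to 8.04 in the other 15, so NEET5-4 was the lowest there too and the edge of the run on that side is uncertain. AT2G19630, between NDL3 and ASHR2, was near 0 in every library. The nearest tested genes on either side were higher in NEET5-4 than in H89C4-7. KEA4 had 302, 259.5 and 266 in H89C4-7, against 312, 346 and 344 in NEET5-4 and 340 to 462 in the other 15. AT2G19660 had 18.1, 30.3 and 22.2 in H89C4-7, against 93.0, 83.8 and 101 in NEET5-4 and 68.5 to 187 in the other 15. NEET5-4 was thus at the lower edge of the other 15 for KEA4 and within their range for AT2G19660. H89C4-7 was below their range for both genes. Searching every gene for a line with all libraries more than 8-fold below the lowest of the other 18, itself at least 20, found 5 genes for NEET5-4, the 3 above with FOX1 and CYP71A12, 1 for H89C4-7, HAK5, and none for the other groups. The reverse search, for libraries of at least 20 and more than 8-fold above the highest of the other 18, found 25 genes for H89C4-7. It found 1 for NEET10-10 and none for the other groups. The cause of the low run in NEET5-4 was not tested.

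**Figure D5:**
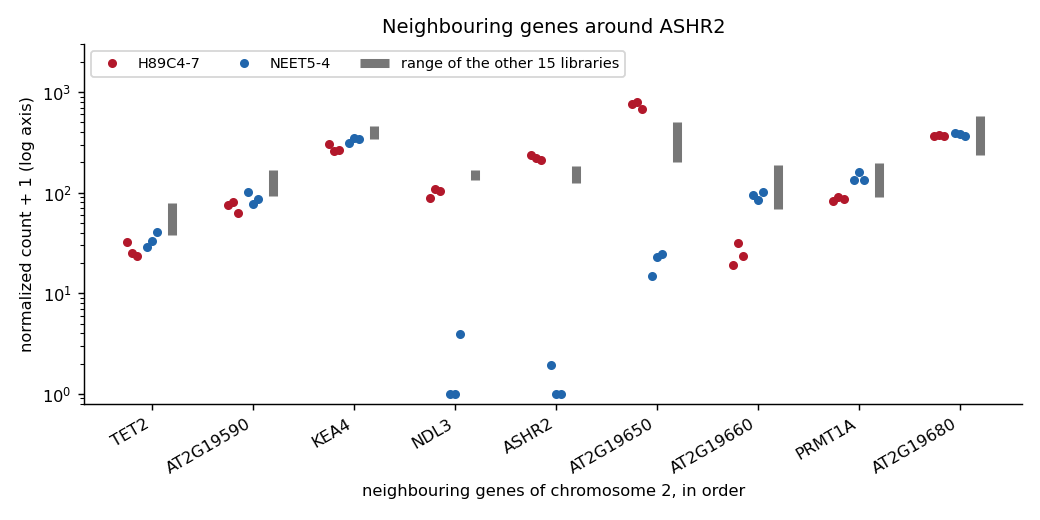
Normalized count + 1 on a log axis for neighbouring genes of chromosome 2 in their order, leaving out genes under 20 in each of the other 15 libraries. Red points are H89C4-7 libraries, blue points NEET5-4 libraries and grey bars the range of the other 15 libraries; NDL3, ASHR2 and AT2G19650 are low in NEET5-4 only.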

How the data were processed

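The deposited table holds 32833 genes by 21 libraries of total RNA, as a normalized signal: the authors scaled the gene counts of each library by its size factor. The submitters' processing notes name the build TAIR10, the aligner STAR 2.4.0.1, DESeq2 1.20.0 and FastQC 0.11.7. With the counter and its strand setting not given in the sources used here, antisense, overlapping and near-identical genes are uncertain. Whole reads were recovered from 100% of the values within a tolerance of 0.001. Genes with at least 10 in 3 or more libraries were tested by limma-trend (limma 3.58.1, R 4.3.3) on log2(value + 1), with 1 mean for each of the 7 groups over all 21 libraries and Benjamini-Hochberg adjustment over the 20699 genes. Alternatives included edgeR 4.0.16 quasi-likelihood and DESeq2 1.42.0 tests on the recovered reads, and the code was tested on simulated data.

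The 35 gene lists, 2 of them all genes of the organelle genomes, and the pair of lines were chosen with earlier results of these data known. Named genes are AtNEET, the 10 largest rises and falls among called genes that average 50 or more in either line without overlap, the 5 largest each way called in both contrasts by the smaller of the 2 differences, and list members; the genes around ASHR2 were chosen after their values were seen. Symbols and sequences are from RefSeq, TAIR10.1, which matched 32548 genes; no coordinates were taken from the deposited table. Intervals and floors of 3 reads cover counting error only. No pair of libraries of a group agreed within sampling noise.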

Additional observations from a re-analysis of the deposited data

Results flagged for a closer look

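The genes below had a difference between H89C4-7 and NEET5-4 that itself differed from that between the other H89C and NEET lines, by limma on the difference of the contrasts (adjusted p under 0.05). The largest rises and falls were chosen for extreme values in the pair, which favours such a difference, so how many of them passed is not read as a pattern and their p-values are descriptions. Values below are log2 of the pair minus log2 of the other lines, positive where H89C4-7 minus NEET5-4 is the larger. Among the rises it was 5.27 ± 0.17 SE, limma adjusted p = 1.57e-18 for DIN2, 7.36 ± 0.22 SE, limma adjusted p = 4.16e-19 for ASHR2 and 5.15 ± 0.24 SE, limma adjusted p = 1.37e-15 for GLYI7. It was 7.31 for ELI3-2, 7.19 for AT5G16960, 6.64 for SUC7, 5.26 for AT2G33160, 5.15 for UGT73C2 and 4.07 for SAG13. These genes had 0 or 1 read in NEET5-4, as had ASHR2, so that their values depend on the constant added. The difference was 4.53 for ARCK1. Among the rises called in both contrasts it was 1.26 for CYP82C2, 1.91 for AT1G26390, 1.23 for AIG1 and 2.02 for AT1G58320. CYP82C2 had 0 reads in NEET5-4, so its value depends on the constant too.

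Among the falls the difference was -5.12 ± 0.20 SE, limma adjusted p = 3.98e-17 for GSTF14 and -4.67 ± 0.27 SE, limma adjusted p = 8.55e-14 for HAK5. Both were lower in the pair, while the mean of the other H89C lines was above that of the other NEET lines (0.95 and 0.78). GSTF14 had means of 741 in H89C11-7, 108 in H89C23-10, 186 in NEET10-10 and 116 in NEET11-9. HAK5 had 535, 198, 358 and 101 in the same order of lines. The mean of H89C23-10 was thus below those of both NEET lines for GSTF14 and between them for HAK5. For GSTF14 the H89C23-10 libraries (99.5 to 119) overlapped those of NEET11-9 (92.6 to 144). The difference was -1.0 for ANR1, -3.40 for ALMT1, -3.23 for AT5G47000, -3.28 for AT1G33770, -2.33 for XTH17, -2.46 for AT3G01260 and -2.93 for ADS4. It was -3.56 for XTH16, whose difference in the other lines was not called (log2 0.09 ± 0.07 SE, limma adjusted p = 0.315). AtNEET levels and lines both differ between the contrasts and cannot be told apart.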

How the results depend on the processing

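Across the other settings tried, of which 1 was chosen after seeing the data (without Col replicate 1 and NEET10-10 replicate 1), genes called higher in H89C4-7 numbered 6467 to 7609 and lower 6376 to 7425, and at least 2-fold 1573 to 2113 higher and 1835 to 2417 lower, against 7151, 6790, 1712 and 2198. edgeR called 6992 higher and 6918 lower, DESeq2 6969 and 6488. Rescaling, which moved the median of all genes by 0.048 on the log2 scale, gave 6467 higher and 7425 lower. Leaving out 1 library of the pair gave 6705 to 6805 higher and 6376 to 6475 lower. The replicate numbers did not pair the libraries: same-numbered libraries of the lines correlated at 0.018, -0.014 and -0.019 in their deviations from the line means, and 9 pairs of any number at -0.019 to 0.027. With the replicate number as a block 7162 genes were higher and 6806 lower. Without H89C11-7 the other lines gave 2774 higher, 2621 lower and 2835 in the same direction as the pair; the cause was not tested. Of 134 named genes none changed sign, and 3 changed their call (IRT1, FRO2 and FER3). Of 70 counts of list members 8 moved by over 1.5 times under some setting, all of them counts of 7 or fewer. Depth limits genes near 0, where a fold depends on the constant added.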
